A study of Mus musculus with 6 samples.

Results

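The genes of the major histocompatibility complex (MHC) and of antigen processing were described in the livers of mice with an endothelial knockout of Sting and of their control littermates. They were chosen by name: every symbol that starts with H2-, plus B2m, Cd74, Ciita, Nlrc5, Tap1, Tap2, Tapbp, Psmb8, Psmb9, Psmb10, Psme1, Psme2 and Erap1. This gave 47 of the 21956 genes in the table, of which 27 belong to class I, 11 to class II and 9 to antigen processing. Polyadenylated RNA of whole liver was sequenced in 6 mice. The knockout group held 3 mice with floxed Sting alleles and the Cdh5-Cre transgene (Stingfl/fl Cdh5-Cre+), in which the Cdh5 promoter directs Cre to endothelial cells. The control group held 3 littermates with the same floxed alleles and no Cre (Stingfl/fl Cdh5-Cre-). Both groups ate chow until 8 weeks of age and then, for 10 weeks, CDAHFD, a high-fat diet without choline whose protein is given as L-amino acids and which produces metabolic dysfunction-associated steatohepatitis (MASH). Only the knockout mice carried Cre, and what Cre does on its own and what the deletion does cannot be told apart. The question for these genes is whether their transcripts differ between the livers of the 2 genotypes under this diet.

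Class I molecules are made of a heavy chain and the light chain beta-2 microglobulin, stand on nearly every nucleated cell, and show peptides from inside the cell to CD8 T cells and natural killer cells. Their peptides are cut by the proteasome, whose catalytic subunits are exchanged for immunoproteasome subunits under interferon-gamma, carried into the endoplasmic reticulum by the TAP transporter, trimmed by Erap1 and loaded with the help of tapasin. Class II molecules show peptides from endosomes to CD4 T cells and are made mostly by dendritic cells, B cells and macrophages, and in liver also at lower levels by sinusoidal endothelial cells. The transactivators Nlrc5 for class I and Ciita for class II act without binding DNA themselves, through a shared promoter module read by RFX, CREB and NF-Y proteins.

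The promoter stretches below are shown to let this module be read in 3 class I and 2 class II genes that carry its spelling, beside H2-Q10, which does not. RefSeq gave a promoter (250 bases before to 50 after the start, build GRCm38.p6) for 39 of the 47 genes. Of each gene shown, the last 160 bases before the RefSeq start are printed on the gene's own strand. Capitals mark TGANG and ATTGG where they stand 19 to 22 bases apart in this order, and AANNGAAA, a core of interferon response elements, on either strand; in H2-K1, H2-Q7 and H2-Q10 it is read on the other strand.
H2-K1 (chr17:34000348-34000507, minus strand): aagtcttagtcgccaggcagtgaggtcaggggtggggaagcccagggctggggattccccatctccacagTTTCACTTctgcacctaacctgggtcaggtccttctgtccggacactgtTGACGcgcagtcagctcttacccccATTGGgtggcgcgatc
H2-Q7 (chr17:35438995-35439154, plus strand): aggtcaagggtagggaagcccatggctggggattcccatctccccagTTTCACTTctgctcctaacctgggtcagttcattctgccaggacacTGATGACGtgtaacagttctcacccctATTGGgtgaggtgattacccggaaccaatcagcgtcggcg
H2-Q10 (chr17:35469929-35470088, plus strand): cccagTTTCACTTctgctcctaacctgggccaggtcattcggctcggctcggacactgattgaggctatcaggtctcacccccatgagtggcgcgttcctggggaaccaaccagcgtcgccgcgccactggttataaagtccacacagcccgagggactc
B2m (chr2:122147527-122147686, plus strand): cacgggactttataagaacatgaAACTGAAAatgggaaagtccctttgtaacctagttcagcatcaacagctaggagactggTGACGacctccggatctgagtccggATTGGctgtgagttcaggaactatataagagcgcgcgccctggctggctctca
H2-Aa (chr17:34287824-34287983, minus strand): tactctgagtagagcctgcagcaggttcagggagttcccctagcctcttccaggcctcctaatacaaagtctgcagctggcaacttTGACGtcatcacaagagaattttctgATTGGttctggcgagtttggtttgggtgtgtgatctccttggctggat
H2-Eb1 (chr17:34305707-34305866, plus strand): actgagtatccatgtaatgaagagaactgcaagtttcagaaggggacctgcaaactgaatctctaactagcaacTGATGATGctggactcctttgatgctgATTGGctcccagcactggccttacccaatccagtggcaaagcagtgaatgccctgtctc

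In H2-Q7 and H2-Eb1 the capitals at the left end of the module join overlapping matches of TGANG. The spacing was written down after these promoters had been read, so that its presence in them is no finding. Over all RefSeq promoters and both strands, the spaced pair stood in 320 of 27025 genes (1.18%). It stood in 6 of 23 class I genes (B2m, H2-D1, H2-K1, H2-M3, H2-Q6 and H2-Q7), in 5 of 8 class II genes (H2-Aa, H2-DMb1, H2-DMb2, H2-Eb1 and H2-Eb2) and in 0 of 8 processing genes. The short ATTGG alone stood in 37.5% of all genes, and in 20 of 23 class I, 8 of 8 class II and 3 of 8 processing genes. AANNGAAA stood in 23.9% of all genes, and in 15 of 23 class I, 3 of 8 class II and 0 of 8 processing genes. H2-Q10, a liver-secreted class I protein, holds the interferon core but neither ATTGG nor the spaced pair in this window. These matches describe letters in a window and say nothing of which factor binds.

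Heavy chain genes of class I are close copies of each other, which bears on how reads can be assigned to them. Aligned coding sequences of H2-K1 and H2-D1 were 91.4% identical, those of H2-K1 and H2-Q10 87.8%, and those of H2-K1 and H2-Q2 85.3%. The 60-base stretch that varied least among 6 heavy chains is shown because a read inside it cannot be told between several of them. It spans coding bases 754 to 813 of H2-K1, on chromosome 17, and H2-D1, H2-Q10 and H2-Q7 share it letter for letter with H2-K1. Capitals mark letters that differ from H2-K1.
H2-K1, H2-D1, H2-Q10, H2-Q7: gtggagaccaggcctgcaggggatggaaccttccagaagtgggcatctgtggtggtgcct
H2-Q4: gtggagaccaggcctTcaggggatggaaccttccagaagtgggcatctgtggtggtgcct
H2-Q2: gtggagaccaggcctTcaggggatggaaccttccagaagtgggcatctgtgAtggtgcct

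The stretch that varied most is shown because reads across it do separate the same genes. It follows the start codon, at coding bases 4 to 63 of H2-K1, and 29 of its 60 columns vary among the 6 genes. Capitals again mark letters that differ from H2-K1.
H2-K1: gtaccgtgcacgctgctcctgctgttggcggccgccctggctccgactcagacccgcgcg
H2-D1: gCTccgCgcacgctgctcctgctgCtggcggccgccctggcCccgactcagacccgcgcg
H2-Q10: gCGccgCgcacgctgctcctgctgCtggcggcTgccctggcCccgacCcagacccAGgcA
H2-Q4: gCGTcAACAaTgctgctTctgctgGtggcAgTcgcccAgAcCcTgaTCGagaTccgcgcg
H2-Q7: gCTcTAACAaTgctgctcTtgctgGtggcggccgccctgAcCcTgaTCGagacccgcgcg
H2-Q2: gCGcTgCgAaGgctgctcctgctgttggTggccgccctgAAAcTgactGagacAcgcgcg

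Of all 100-base words in a gene's protein-coding transcripts in GENCODE M21, the share that also occurs in another gene was 17.2% for H2-Q7, 12.4% for H2-Q1 and 12.4% for H2-T22. It was 10.8% for H2-Q6, 7.28% for H2-T23, 5.09% for H2-Q2, 4.09% for H2-D1, 2.66% for H2-Q4 and 1.93% for H2-Q10, and 0 for H2-K1. Among class II genes only H2-DMb1 (13.7%) and H2-DMb2 (10.3%) shared such words, with each other, and H2-Aa, H2-Ab1 and H2-Eb1 shared 0. Among processing genes Psme2 shared 40.3% with its near copy Psme2b. The read length is not stated, and shorter words are shared more often. For 50-base words the share was 24.3% for H2-Q4, 16.1% for H2-Q2, 13.9% for H2-D1 and 6.87% for H2-K1. Estimated counts were not whole numbers in some library for 16 members, 10 of class I, 2 of class II and 4 of processing, which is where the authors' estimate divided reads between genes. H2-K1, H2-D1, Tap1, Psmb9 and Erap1 were among these members. Erap1 had such counts although 0 of its 100-base words are shared, so that the words do not catch every division. Values of single H2-Q and H2-T genes, of the H2-DMb pair and of Psme2 are therefore uncertain. The same holds for H2-K1, H2-D1, Tap1, Psmb9 and Erap1, to a degree that was not measured. Sums are given for the Q region genes, for H2-T22 with H2-T23 and for the H2-DMb pair, but not for Psme2, Tap1, Psmb9 or Erap1. H2-K1 and H2-D1 enter only the sum over all heavy chains. The main partner of H2-T22 in 100-base words was H2-T10, and that of H2-T23 was Gm7030. Neither partner is in the sum of H2-T22 and H2-T23, which leaves that sharing in place.

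The libraries held 16704663 to 21025466 estimated counts, so that the limit of 3 counts lay between 0.143 and 0.18 CPM (counts scaled to library size). Albumin took 6.91% to 10.9% of the counts in each library: the labels name sinusoidal endothelial cells as a cell type, and the values are those of whole liver. Fewer cells of a type and less RNA per cell cannot be told apart in such samples. Sting1 stood at 4.29, 7.15 and 4.47 TPM in the knockout livers, against 9.84, 18.9 and 8.51 TPM in the control livers, with no overlap (log2 fold change -1.29, standard error 0.23, adjusted p = 0.357 in edgeR and 0.00151 in DESeq2, which called it). Which exon Cre removes is not stated in the labels, and reads from the rest of the transcript may be counted. Control replicate 2 differed from the rest, with the lowest albumin share (6.91%). TMM scaling factors were 0.922 to 0.941 over the knockout livers, against 1.26 in control replicate 2 and 0.975 and 1.01 in the other controls.

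The levels of the members, in TPM (transcript abundance per gene length within a constant library sum, a scale on which genes can be set side by side), ran from B2m at the top to genes with no count at all. B2m led at 4014 ± 415 TPM in the knockout livers and 3990.5 ± 10.6 TPM in the control livers (SD, n = 3 each). H2-Q10 and H2-K1 came next, and their ranges over the libraries overlapped. H2-D1 followed at 874 ± 49.6 TPM in the knockout livers and 858 ± 133 TPM in the control livers (SD, n = 3 each), below every value of H2-K1. Cd74, the invariant chain of class II, had the highest level among class II genes and overlapped in range both H2-D1 above it and H2-Aa below it. Processing genes were lower, and Psme1, a subunit of the proteasome activator PA28, led them at 138 ± 7.02 TPM in the knockout livers and 151 ± 26.4 TPM in the control livers (SD, n = 3 each). The transactivators were low, between 3.83 and 6.64 TPM for Nlrc5 and between 2.19 and 4.87 TPM for Ciita. Of the 47 genes, 11 had 0 counts in all 6 libraries: H2-T3 and 10 of the 12 M region genes, leaving H2-M2 and H2-M3 from that region. H2-Bl, annotated as a polymorphic pseudogene, had 0 to 5 counts and was not tested. The plot of levels gives every library for the other 35 genes.

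**Figure D1:**
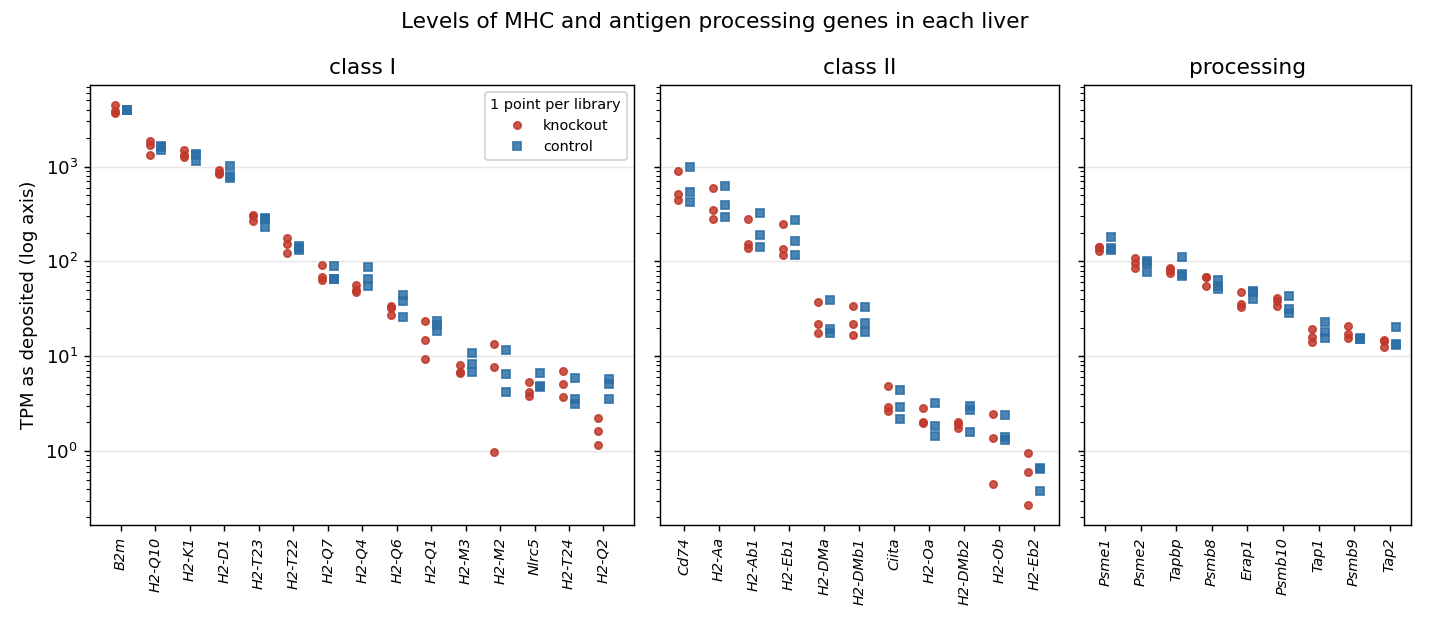
TPM as deposited (vertical log axis) for the 35 tested genes in class I, class II and processing panels, with 1 point per library, knockout left of control within each gene. B2m sits at the top in both groups, at 3678 to 4479 TPM, most genes overlap between the groups, and H2-Q2 is the gene whose knockout points all lie below its control points.

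No member passed the genome-wide test between knockout and control livers. In edgeR's quasi-likelihood test with Benjamini-Hochberg adjustment, 0 of 35 tested members and 0 of 13197 tested genes (0.0%) passed at 0.05, and among members the lowest adjusted p was 0.373. DESeq2 called 118 genes, 0.913% of those it adjusted, and limma-voom called 0, and neither called a member. At an unadjusted p under 0.05, 3 members were higher in knockout livers (Psmb8, Psmb9 and Psmb10), against 3.75% of all tested genes, and 1 was lower (H2-Q2), against 7.0% of all tested genes. In CPM scaled by TMM, the groups did not overlap for 6 members that were higher in the knockout (H2-D1, H2-Q7, Tapbp, Psmb8, Psmb9 and Psmb10), where 7.25% of all genes did the same, and for 1 that was lower (H2-Q2), where 9.14% did. In the deposited TPM, 0 members were higher without overlap (1.38% of all genes) and again H2-Q2 was lower (18.6% of all genes).

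Fold changes of the members lay mostly a little above 0 on the TMM scale. Log2 fold changes, knockout over control, were above 0 in 28 of 35 members with a median of 0.24, against 51.2% of all tested genes with a median of 0.0083. By class, 10 of 15 class I genes were above 0 (median 0.24), 9 of 11 class II genes (median 0.24) and 9 of 9 processing genes (median 0.20). The class II median rested on single livers, at -0.12 without knockout replicate 1, 0.44 without knockout replicate 3 and 0.090 without control replicate 3. The class I median was 0.15 without knockout replicate 3 and 0.11 without control replicate 2. The signs also depend on scaling: with library totals the medians were 0.043 for class I, -0.012 for class II and -0.031 for processing, and on log2(TPM + 1) they were 0.0035, -0.039 and -0.046. The median of all tested genes shifted as well, to -0.21 with library totals and -0.20 on log2(TPM + 1). Relative to that median, the classes stood at 0.23, 0.24 and 0.19 with TMM, at 0.25, 0.20 and 0.18 with library totals, and at 0.20, 0.16 and 0.15 on log2(TPM + 1). The plot of fold changes gives each gene with its interval.

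**Figure D2:**
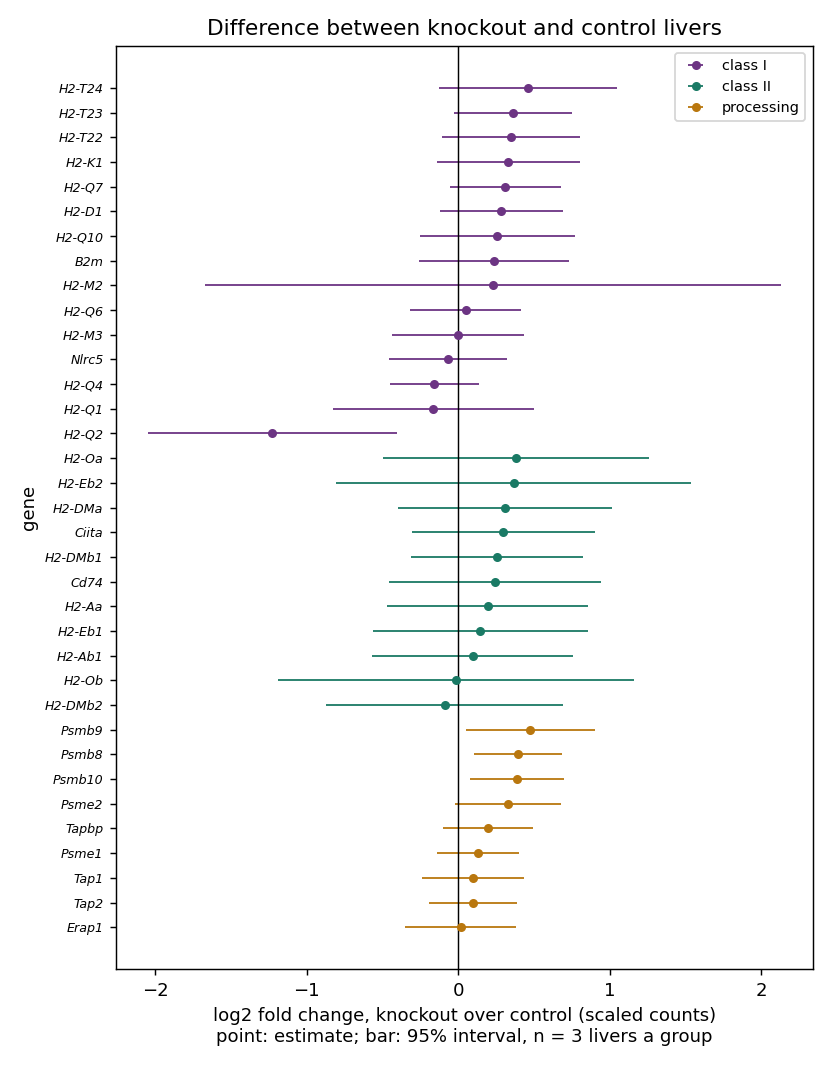
Log2 fold change of each tested gene, knockout over control, on TMM-scaled counts (horizontal axis), with its 95% interval from edgeR's fit and n = 3 livers a group; genes are sorted within class I, class II and processing. Most points lie right of 0 with intervals that cross it, the immunoproteasome genes Psmb8, Psmb9 and Psmb10 have intervals above 0, and H2-Q2 stands at -1.23.

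Among class I genes, the classical heavy chains, which present peptides to CD8 T cells, differed little. H2-K1 (ENSMUSG00000061232, GRCm38 chromosome 17, 33996017 to 34000347, minus strand) had 1339.9, 1252 and 1509.7 TPM in the knockout livers, against 1373, 1335 and 1152 TPM in the control livers. Knockout replicate 3 was highest and control replicate 3 lowest, and the groups overlapped. The log2 fold change on scaled counts was 0.33 (standard error 0.21, 95% interval -0.14 to 0.80, edgeR adjusted p = 0.587).

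H2-D1 (ENSMUSG00000073411, GRCm38 chromosome 17, 35262730 to 35267499, plus strand) had 854, 838 and 931 TPM in the knockout livers, against 800.2, 1011 and 764 TPM in the control livers. On this scale control replicate 2 was the highest library. In scaled CPM H2-D1 had 1060.2, 1022 and 1149.5 CPM in the knockout livers, against 902, 857 and 895 CPM in the control livers, so that there the groups did not overlap. On that scale the log2 fold change was 0.28 (standard error 0.18, edgeR adjusted p = 0.588).

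B2m, the light chain of all class I molecules (ENSMUSG00000060802, GRCm38 chromosome 2, 122147686 to 122153083, plus strand), had 3886, 4479 and 3678 TPM in the knockout livers, against 3996, 3978 and 3998 TPM in the control livers. The control libraries had an SD of only 10.6 TPM, and the knockout libraries spread on both sides of them. Its log2 fold change was 0.24 (standard error 0.22, edgeR adjusted p = 0.706), and the ratio of B2m to the summed heavy chains in TPM ran over 0.738 to 1.12 with overlapping groups.

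Nlrc5, the class I transactivator, had 5.33, 4.15 and 3.83 TPM in the knockout livers, against 4.71, 6.64 and 4.88 TPM in the control livers. Control replicate 2 was highest and the groups overlapped, at a log2 fold change of -0.067 (95% interval -0.46 to 0.32).

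H2-Q2 was the class I gene with the clearest difference and the lowest member of all in fold change. This Q region heavy chain gene (ENSMUSG00000091705, GRCm38 chromosome 17, 35342242 to 35346762, plus strand) had 31, 14 and 21.04 counts in the knockout livers, against 65, 59 and 49.09 counts in the control livers. In TPM it had 2.26, 1.16 and 1.62 TPM in the knockout livers, against 5.07, 5.80 and 3.51 TPM in the control livers. All knockout libraries lay below all control libraries on each scale. Its log2 fold change was -1.23 (standard error 0.36, 95% interval -2.05 to -0.40), with an unadjusted p of 0.00848 and an adjusted p of 0.373 in edgeR. Over the 18 settings tried, the unadjusted p stayed between 0.00114 and 0.0387 and the adjusted p between 0.124 and 0.815. The counts are few and 5.09% of its 100-base words are shared, all with H2-Q1. H2-Q1 itself had 14.9, 9.33 and 23.5 TPM in the knockout livers, against 21.4, 23.6 and 18.5 TPM in the control livers, with overlapping groups, and knockout replicate 2 was lowest in both genes.

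The other Q region genes overlapped between the groups in TPM. H2-Q4, which shares no 100-base word with H2-Q2, had 56.6, 49.9 and 47.8 TPM in the knockout livers, against 64.6, 87.8 and 54.8 TPM in the control livers. The ratio of H2-Q2 to H2-Q4 in TPM was 0.0399, 0.0233 and 0.0340 in the knockout livers, against 0.0785, 0.0661 and 0.0639 in the control livers. That ratio was lower in every knockout library (two-sided exact permutation p = 0.1, the smallest that 3 against 3 allows, and 0.743 after Benjamini-Hochberg adjustment over the 13 ratios computed). It rests on the same H2-Q2 reads, and H2-Q2 was named for its p, so that the ratio is no separate evidence.

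H2-Q10 had 1679.8, 1311 and 1848 TPM in the knockout livers, against 1633, 1622 and 1508 TPM in the control livers. Its groups overlapped, with knockout replicate 2 lowest and knockout replicate 3 highest. H2-Q7, which encodes a Qa-2 antigen, had 54.1, 49.5 and 73.1 CPM in the knockout livers, against 45.0, 48.1 and 49.4 CPM in the control livers after scaling, without overlap, and 68.0, 64.0 and 91.4 TPM in the knockout livers, against 64.8, 89.9 and 65.3 TPM in the control livers before it, with overlap. Summed over the 6 Q region genes, to leave the division of reads among them aside, the log2 fold change was 0.23 (standard error 0.22, edgeR adjusted p = 0.721). Because H2-Q10 holds most of that sum, it says little about H2-Q2.

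Among T region genes, H2-T23, which encodes Qa-1 and displays leader peptides of other class I chains to natural killer cell receptors, had 298, 266 and 307 TPM in the knockout livers, against 289, 277 and 233 TPM in the control livers. H2-T22, a ligand of gamma-delta T cells, had 122, 153 and 178 TPM in the knockout livers, against 144, 133 and 139.6 TPM in the control livers. Both overlapped between groups, and their summed counts gave a log2 fold change of 0.36 (standard error 0.19, edgeR adjusted p = 0.528). H2-T24 lay between 3.15 and 7.05 TPM.

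In the M region, H2-M3, which presents N-formylated peptides, lay between 6.61 and 10.9 TPM. H2-M2 varied far more between animals than any other class I gene, by 14.0-fold between its lowest and its highest library. It had 13.5, 7.73 and 0.966 TPM in the knockout livers, against 11.7, 6.42 and 4.23 TPM in the control livers. High and low libraries occurred in both groups, and knockout replicate 3 was lowest. The 95% interval of its log2 fold change ran from -1.67 to 2.13. Summed over the 25 heavy chain genes, class I counts gave a log2 fold change of 0.28 (standard error 0.22, edgeR adjusted p = 0.656).

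Class II transcripts differed more between animals than between genotypes, and they moved together. H2-Aa, the alpha chain of the I-A molecule (ENSMUSG00000036594, GRCm38 chromosome 17, 34282744 to 34287823, minus strand), had 596, 347 and 282 TPM in the knockout livers, against 395, 619.6 and 297 TPM in the control livers. H2-Ab1, its beta chain, had 279, 152 and 138 TPM in the knockout livers, against 190.3, 321 and 143 TPM in the control livers. In both, knockout replicate 1 and control replicate 2 were the high libraries, and the groups overlapped.

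H2-Eb1, the beta chain of I-E, had 249.8, 134 and 116 TPM in the knockout livers, against 166, 277 and 117 TPM in the control livers. Cd74, the invariant chain that guards the peptide groove until the endosome (ENSMUSG00000024610, GRCm38 chromosome 18, 60803848 to 60812652, plus strand), had 899.5, 521 and 449.7 TPM in the knockout livers, against 545, 987 and 425 TPM in the control livers. The same pair of libraries stood highest again. Log2 fold changes were 0.20 for H2-Aa (95% interval -0.47 to 0.86), 0.097 for H2-Ab1, 0.15 for H2-Eb1 and 0.24 for Cd74. No edgeR adjusted p among them was under 0.787. Without knockout replicate 1 the signs turned, to -0.18, -0.29, -0.27 and -0.12 in the same order of genes.

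The ratios between these chains were far steadier than their levels. H2-Aa to H2-Ab1 in TPM was 2.14, 2.28 and 2.05 in the knockout livers, against 2.08, 1.93 and 2.08 in the control livers. Over all 6 libraries Cd74 to H2-Aa ran over 1.38 to 1.59 and H2-Eb1 to H2-Ab1 over 0.823 to 0.896. The highest library exceeded the lowest by 2.19 times for H2-Aa and 2.32 times for Cd74.

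H2-DMa, a chain of the editor that exchanges class II peptides, had 37.4, 21.8 and 17.5 TPM in the knockout livers, against 17.5, 39.5 and 19.2 TPM in the control livers. H2-DMb1, a partner chain, had 33.6, 21.8 and 16.9 TPM in the knockout livers, against 22.7, 32.9 and 18.0 TPM in the control livers. Both followed the chains above, with knockout replicate 1 and control replicate 2 high and the rest low. H2-DMb2, the close copy of H2-DMb1 (95.9% identity in coding sequence), had 2.00, 1.93 and 1.75 TPM in the knockout livers, against 2.70, 3.02 and 1.59 TPM in the control livers. Control replicates 1 and 2 were its highest libraries, and its level was far below that of H2-DMb1 throughout. Summed over the H2-DMb pair, the log2 fold change was 0.23 (standard error 0.24, edgeR adjusted p = 0.739).

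H2-Oa and H2-Ob form H2-O, an inhibitor of the editor found mainly in B cells. H2-Oa had 2.85, 1.97 and 2.03 TPM in the knockout livers, against 1.45, 3.20 and 1.82 TPM in the control livers. H2-Ob had 2.43, 1.38 and 0.449 TPM in the knockout livers, against 1.40, 2.38 and 1.31 TPM in the control livers. Both rest on few counts, 17 to 35 for H2-Oa and 13 to 68 for H2-Ob, and the groups overlapped in both. H2-Eb2 lay between 0.272 and 0.942 TPM.

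Ciita, the transactivator on which class II transcription depends, had 4.87, 2.62 and 2.92 TPM in the knockout livers, against 2.89, 4.42 and 2.19 TPM in the control livers. Knockout replicate 1 and control replicate 2 were its highest libraries as well. Its log2 fold change was 0.30 (standard error 0.27, edgeR adjusted p = 0.699), and without knockout replicate 1 it was -0.044.

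Knockout replicate 1 and control replicate 2 were the pair of highest libraries in TPM for 9 of 11 class II genes, a pattern singled out after the values were seen. The same held for 1 of 15 class I genes, 2 of 9 processing genes and 10.9% of all tested genes. The ratio of the highest to the lowest library had a median of 2.26 in class II, 1.65 in class I and 1.46 in processing, against 1.90 over all tested genes. These genes share libraries and cell sources, so that they do not count as separate observations. The map of deviations shows the pattern gene by gene.

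**Figure D3:**
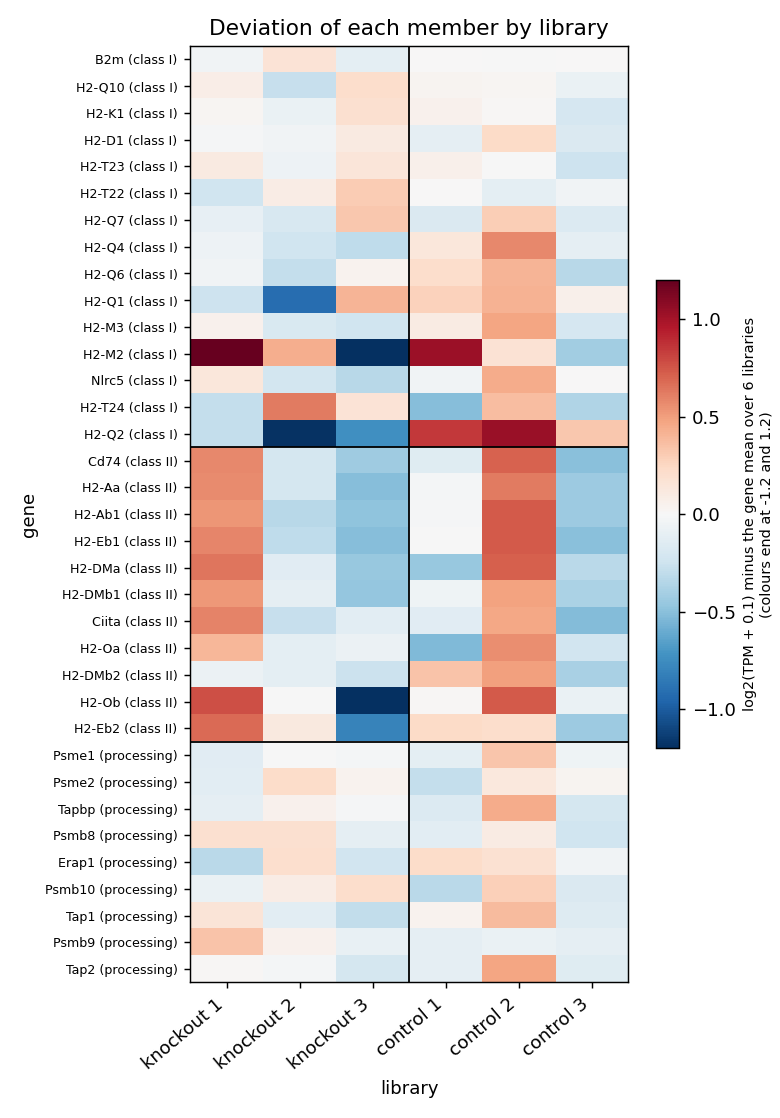
For each tested gene (a line of the map) and library (a column, knockout left of control), colour gives log2(TPM + 0.1) minus the gene's mean over the 6 libraries, with red above and blue below it. The class II genes form a red block in knockout replicate 1 and in control replicate 2, and class I and processing genes show no such block.

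Summed over the 10 class II genes other than Ciita, the level was 2103, 1204 and 1025 TPM in the knockout livers, against 1342, 2286 and 1024 TPM in the control livers. The other 4 libraries, between 1024 and 1342 TPM, lay well under knockout replicate 1 and control replicate 2. Summed counts of the 9 class II H2 genes gave a log2 fold change of 0.16 (standard error 0.31, edgeR adjusted p = 0.856).

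Markers of the cells that make class II were read in the same libraries, as sums of CPM over total counts. Fold changes beside these and later marker sums are on the TMM scale. The 2 scales differ: the median of all tested genes was 0.0083 with TMM and -0.21 with library totals. Signs of the markers with library totals were not read. The 10 B cell markers summed to 22.97, 17.6 and 13.9 CPM of total counts in the knockout livers, against 14.0, 22.03 and 17.4 CPM of total counts in the control livers. The groups overlapped in this sum, and its 2 highest libraries were also knockout replicate 1 and control replicate 2. All 6 B cell markers with enough counts to test had log2 fold changes above 0, with a median of 0.28 (smallest p for Cd79a at 0.58, Pax5 at 0.76 and Cd22 at 0.26).

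The 12 dendritic cell markers summed to 138, 129 and 102 CPM of total counts in the knockout livers, against 143, 224 and 131 CPM of total counts in the control livers. Of these genes, 3 of 12 had log2 fold changes above 0, with a median of -0.24 (smallest p for Cadm1 at -0.47, Flt3 at -0.35 and Clec9a at -0.31). The 12 monocyte and macrophage markers summed to 2072, 1938 and 1425 CPM of total counts in the knockout livers, against 2005, 3640.0 and 1916 CPM of total counts in the control livers. Log2 fold changes were above 0 in 6 of these 12 genes, with a median of 0.0076. Their smallest p belonged to Spp1 (log2 fold change -1.21), which the cholangiocyte list also holds, Adgre1 (0.42) and Ccr2 (-0.50). In both sums control replicate 2 was the highest library and knockout replicate 1 was not set apart.

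The 10 Kupffer cell markers summed to 1007, 1193 and 938 CPM of total counts in the knockout livers, against 607, 836 and 987 CPM of total counts in the control livers. All 10 had log2 fold changes above 0, with a median of 0.75, and 0 passed the adjusted test of edgeR or DESeq2. In edgeR 6 were higher at an unadjusted p under 0.05, against 3.75% of all tested genes. By p, Folr2 (0.84), Cd5l (0.63) and Clec1b (0.55) came first. No marker of these 4 lists was at 0 in all libraries. The part of these cells in the class II levels was not tested.

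**Figure D4:**
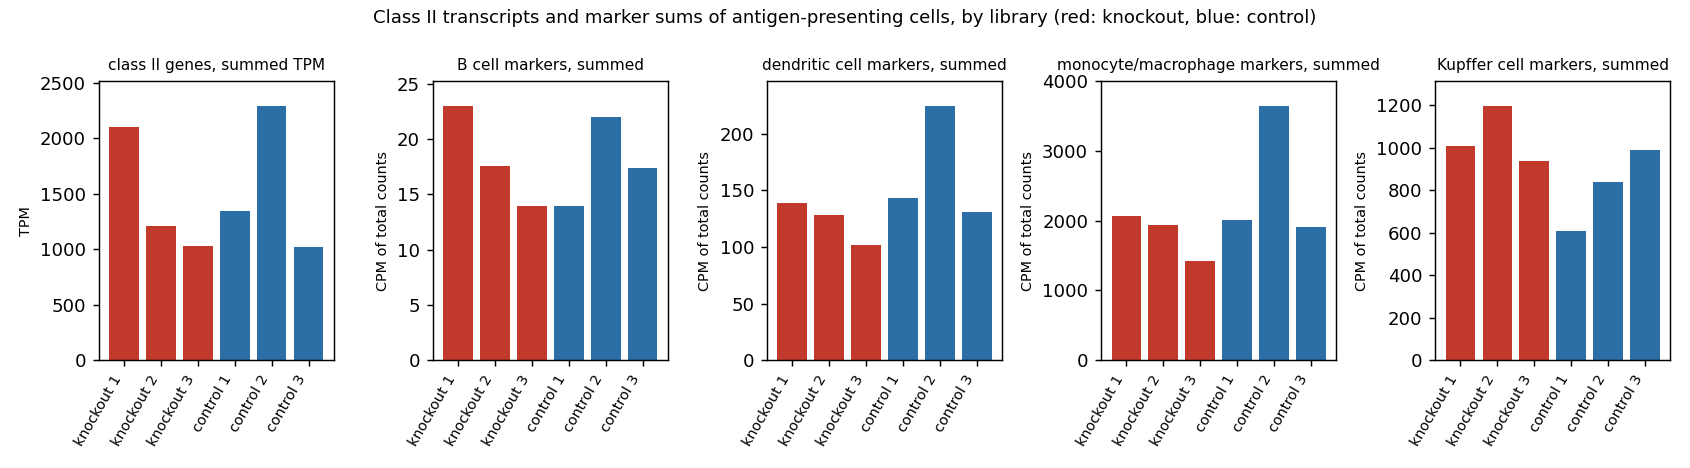
Summed TPM of the class II genes and summed CPM of markers of B cells, dendritic cells, monocytes and macrophages, and Kupffer cells (vertical axes, from 0), with 1 bar per library, knockout in red left of control in blue. Knockout replicate 1 and control replicate 2 are the tallest bars for class II and for B cell markers, and control replicate 2 alone is tallest for dendritic cell and for monocyte and macrophage markers.

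Among processing genes, the 3 immunoproteasome subunits were higher in every knockout library after scaling. Psmb8, the interferon-inducible subunit beta 5i (ENSMUSG00000024338, GRCm38 chromosome 17, 34197721 to 34201454, plus strand), had 40.4, 39.1 and 32.8 CPM in the knockout livers, against 29.4, 27.5 and 28.5 CPM in the control livers. The log2 fold change was 0.39 (standard error 0.13, 95% interval 0.10 to 0.69), with an unadjusted p of 0.0135 and an adjusted p of 0.381 in edgeR.

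Psmb9, subunit beta 1i (ENSMUSG00000096727, GRCm38 chromosome 17, 34181987 to 34187764, minus strand), had 16.9, 13.7 and 12.1 CPM in the knockout livers, against 10.9, 8.43 and 11.3 CPM in the control livers. Knockout replicate 1 was the highest library and control replicate 2 the lowest. The log2 fold change was 0.48 (standard error 0.19, edgeR adjusted p = 0.427). Psmb9 and Tap1 lie head to head and overlap on opposite strands, and the sources do not say if counting used the strand. In knockout replicate 3 their counts were 220.53 and 455.47, which shows reads divided between them.

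Psmb10, subunit beta 2i (ENSMUSG00000031897, GRCm38 chromosome 8, 105935735 to 105938444, minus strand), lies outside the MHC and had 26.5, 29.3 and 32.3 CPM in the knockout livers, against 20.3, 23.4 and 23.5 CPM in the control livers. The log2 fold change was 0.39 (standard error 0.14, edgeR adjusted p = 0.389). Each group kept to its own range in all 3 genes.

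The difference depended on scaling. In TPM, Psmb8 had 68.3, 68.3 and 55.5 TPM in the knockout livers, against 54.7, 64.2 and 50.8 TPM in the control livers. Psmb9 had 20.9, 17.2 and 15.5 TPM in the knockout livers, against 15.3, 15.7 and 15.3 TPM in the control livers. The groups overlapped for all 3 subunits in TPM, and Psmb10 was highest in control replicate 2. With library totals or on the TPM scales the log2 fold changes were 0.14 to 0.28. Of 18 settings, the unadjusted p was under 0.05 in 14 for Psmb8, 11 for Psmb9 and 12 for Psmb10. The plot of subunits gives the scaled values.

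**Figure D5:**
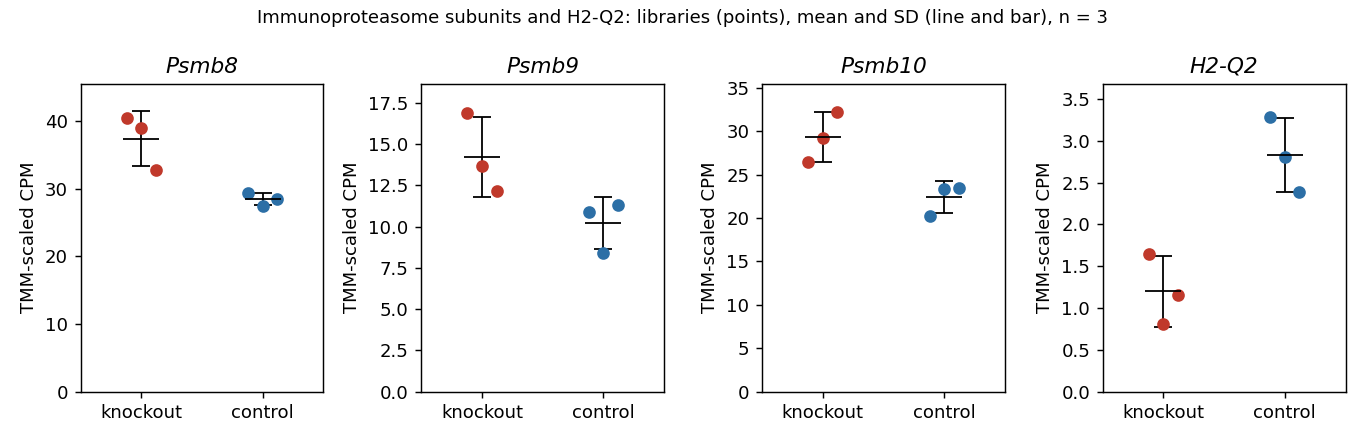
TMM-scaled CPM (vertical axis, from 0) of Psmb8, Psmb9, Psmb10 and H2-Q2 in knockout (left) and control (right) livers, with 1 point per library, the mean as a line and the SD as a bar. The knockout points of the 3 subunits lie above the control points, and those of H2-Q2 lie below.

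Each immunoproteasome subunit takes the place of a constitutive one, so their ratios in TPM do not depend on library scaling. Psmb8 to Psmb5 was 0.751, 0.722 and 0.550 in the knockout livers, against 0.568, 0.539 and 0.503 in the control livers. Psmb9 to Psmb6 was 0.157, 0.128 and 0.0939 in the knockout livers, against 0.118, 0.0902 and 0.103 in the control livers. Psmb10 to Psmb7 was 0.315, 0.308 and 0.332 in the knockout livers, against 0.260, 0.358 and 0.236 in the control livers. The groups overlapped in each, with two-sided exact permutation p of 0.2, 0.4 and 0.4 (0.743 each after adjustment over the 13 ratios). The smallest p that 3 against 3 allows is 0.1. Psmb8 to Psmb5 averaged 0.674 ± 0.109 in the knockout livers and 0.537 ± 0.0325 in the control livers (SD, n = 3 each), a difference of means above both SDs. For the other pairs the knockout mean was higher too, by less than the larger SD.

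The proteasome activator PA28 is made of Psme1 and Psme2. Psme1 had 130.3, 143 and 141 TPM in the knockout livers, against 132, 181 and 139 TPM in the control livers. Psme2 had 85.6, 109 and 96.6 TPM in the knockout livers, against 76.7, 102 and 95.6 TPM in the control livers. Both overlapped between groups, and log2 fold changes were 0.13 and 0.33. Psme2 shares words with Psme2b, as given above.

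Tap1 and Tap2 form the peptide transporter. Tap1 had 19.4, 16.1 and 14.2 TPM in the knockout livers, against 18.1, 22.8 and 15.7 TPM in the control livers. Tap2 had 14.7, 14.4 and 12.6 TPM in the knockout livers, against 13.6, 20.4 and 13.2 TPM in the control livers. Control replicate 2 was highest in both and the groups overlapped, with log2 fold changes of 0.099 and 0.098.

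Tapbp, tapasin, which holds class I at the transporter, had 76.4, 85.2 and 81.4 TPM in the knockout livers, against 73.4, 112 and 71.0 TPM in the control livers. In scaled CPM it had 123, 133 and 129.7 CPM in the knockout livers, against 106, 123 and 107 CPM in the control livers, and the lowest knockout library lay only just above the highest control library. Erap1, the aminopeptidase that trims peptides, had 33.3, 48.0 and 35.7 TPM in the knockout livers, against 48.6, 47.4 and 40.6 TPM in the control livers. The groups overlapped, at a log2 fold change of 0.016 (95% interval -0.35 to 0.38). With library totals and on the TPM scales the fold changes of Tap1, Tap2, Tapbp, Psme1 and Erap1 were all below 0, from -0.24 to -0.031, so that their sign rests on the scaling.

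Genes around the pathway were read from lists of known partners, with fold changes on the TMM scale. With library totals the median of all tested genes was -0.21 instead of 0.0083. The list medians were not computed on that scale, so that their signs may rest on the scaling. The interferon-gamma list had 13 tested genes, of which 9 were above 0 with a median of 0.30, and 0 passed edgeR's adjusted test. At an unadjusted p under 0.05, 4 were higher and 1 was lower, against 3.75% and 7.0% of all tested genes. Irf1, which drives immunoproteasome and class I genes, had 44.2, 43.1 and 40.1 CPM in the knockout livers, against 23.6, 30.9 and 31.6 CPM in the control livers. Its log2 fold change was 0.57 (standard error 0.14), with an adjusted p of 0.367 in edgeR and 0.0776 in DESeq2. The knockout libraries all lay above the control libraries.

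Irf2 had 45.7, 44.4 and 50.6 CPM in the knockout livers, against 35.4, 34.1 and 38.3 CPM in the control livers. Irf9, part of the complex that answers type I interferon, had 37.4, 37.1 and 38.0 CPM in the knockout livers, against 30.6, 30.8 and 28.2 CPM in the control livers. In both genes the groups did not overlap, at log2 fold changes of 0.38 and 0.33 and edgeR adjusted p of 0.38 and 0.387. Of the 13 list genes, 4 were higher without overlap in scaled CPM and 1 was lower, against 7.25% and 9.14% of all tested genes. Groups overlapped in TPM for Irf1, Irf2 and Irf9. The lower gene was Jak2, a kinase of the interferon-gamma receptor, named after its values were seen. It had 26.3, 25.2 and 17.8 CPM in the knockout livers, against 32.0, 34.1 and 30.3 CPM in the control livers, with every knockout library lower in CPM and in TPM (log2 fold change -0.48, edgeR adjusted p = 0.392).

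Of 12 factors that act on MHC promoters, 7 were above 0 with a median of 0.11. Besides Irf1 and Irf2, the smallest p belonged to Ezh2, a methyltransferase that represses class I and class II genes in some cells. It had 3.78, 4.99 and 2.91 CPM in the knockout livers, against 6.52, 8.43 and 6.73 CPM in the control livers, with every knockout library lower (log2 fold change -0.89, edgeR adjusted p = 0.367).

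Of 12 partners of class I loading, 9 were above 0 with a median of 0.10. Their smallest p belonged to Lnpep, an endosomal aminopeptidase (-0.34), and to the chaperones Calr (0.57) and Hspa5 (0.61), all as log2 fold changes with edgeR adjusted p of 0.507 or more. Of 17 genes of the constitutive proteasome, its other activators and its assembly, 14 were above 0 with a median of 0.11. In TPM 0 of the 17 were higher without overlap and 3 were lower, against 1.38% and 18.6% of all tested genes. Pomp, which assembles proteasomes, stood at 0.31, Psmb4 at 0.25 and Psmb1 at 0.25. The immunoproteasome subunits, at 0.39 to 0.48, lay above all of these 17, whose highest log2 fold change was 0.31.

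Of 12 genes of lysosomal processing for class II, 9 were above 0 with a median of 0.15. Ctsh, a cathepsin, stood at 0.28 on the log2 scale, Ifi30, which reduces disulfides of antigens, at 0.28, and Marchf8, a ubiquitin ligase, at 0.20. Of 9 tested class I-like genes outside the MHC, 8 were above 0 with a median of 0.19, led by p by Procr (0.70), Azgp1 (0.41) and Ulbp1 (-0.43). Of 8 tested genes in a costimulation list that includes Ciita, 6 were above 0 with a median of 0.11, with Cd274, the ligand of PD-1, at 0.41 and Cd80 at 0.67. None of the genes in these lists passed edgeR's adjusted test or DESeq2's.

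The receptors for class I on the T cell side were read as well. The 14 T and natural killer cell markers summed to 47.9, 34.6 and 27.4 CPM of total counts in the knockout livers, against 23.3, 28.2 and 21.4 CPM of total counts in the control livers. Of them, 11 were above 0 with a median of 0.48. Cd8a, the coreceptor for class I, had 8.67, 7.86 and 3.57 CPM in the knockout livers, against 2.68, 1.38 and 2.39 CPM in the control livers. Its log2 fold change was 1.64 (standard error 0.39), with an adjusted p of 0.367 in edgeR and 0.0139 in DESeq2.

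Cd8b1, its partner chain, had 3.56, 3.21 and 1.81 CPM in the knockout livers, against 1.16, 1.05 and 1.27 CPM in the control livers. Ccl5, a chemokine of T and natural killer cells, had 12.9, 8.84 and 8.35 CPM in the knockout livers, against 5.31, 3.43 and 4.88 CPM in the control livers, and its adjusted p was 0.357 in edgeR and 0.0139 in DESeq2. Groups did not overlap in these 3 genes, which had the smallest p of the list. Of the 14 markers, 5 were higher at an unadjusted p under 0.05 in edgeR, against 3.75% of all tested genes. Without overlap, 5 were higher in scaled CPM and 5 in TPM, against 7.25% and 1.38%. DESeq2 called 2 of them, against 0.913% of the genes it adjusted. The markers share libraries and cell sources and are not separate observations. The part of T and natural killer cells in the levels of Psmb8, Psmb9 and Psmb10, which lymphocytes also make, was not tested.

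Markers of other liver cells differed between the groups to different degrees. The 12 endothelial markers summed to 591 to 619 CPM in the knockout livers and 521 to 644 CPM in the control livers, and 10 of 12 were above 0 (Clec4g 0.56, Fcgr2b 0.39 and Oit3 0.40 by log2 fold change). The 10 hepatocyte markers summed to 127143 to 142835 CPM in the knockout livers and 99135 to 129839 CPM in the control livers. Hepatocyte markers did not all move the same way: 8 rose and 2 fell, between -0.30 and 0.51 on the log2 scale (median 0.35). Hnf4a (0.40), Serpina1a (0.51) and Cps1 (0.44) had the smallest p. The 7 tested cholangiocyte markers were all below 0, with a median of -1.25, and summed to 238 to 529.9 CPM in the knockout livers and 518 to 1599 CPM in the control livers. Of them, 5 were lower at an unadjusted p under 0.05 in edgeR, against 7.0% of all tested genes. DESeq2 called 1, Cftr (log2 fold change -1.87, adjusted p = 0.0318 in DESeq2 and 0.367 in edgeR), against 0.913% of the genes it adjusted. Cftr was followed by Spp1 (-1.21), which the monocyte and macrophage list also holds, and Krt7 (-1.51). Of 8 stellate cell markers 7 were below 0, with a median of -0.22 (Col3a1 -0.90, Col1a1 -0.78 and Pdgfrb -0.31 by smallest p). Whether the makeup of the livers sets any of the differences in MHC genes was not tested.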

How the data were processed

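Polyadenylated RNA of 6 livers was sequenced. The table deposited by the authors gives estimated counts and TPM for 21956 genes; the submitters' processing notes name DESeq2 1.38.3, RSEM 1.3.3, HISAT2 2.2.1 and fastp 0.23.2 and the build GRCm38, without roles. The annotation release, the read length and the use of strand in counting are not stated there, though the libraries were strand-specific per the labels. Estimated counts were rounded for testing, since 6.93% of the values as deposited had decimals. The TPM values were scaled by the authors to gene length and a fixed total, and were used for levels, ratios and alternatives.

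Knockout and control were compared by the quasi-likelihood test of edgeR 4.0.16 (robust fit after TMM scaling and filterByExpr) over 13197 genes, with Benjamini-Hochberg adjustment at 0.05. Scaled CPM used TMM library sizes, and marker sums used total counts. P-values measure the spread between animals, called biological replicates in the labels. No pair of libraries agreed within sampling noise. Alternatives were RLE and upper-quartile scaling, library totals, DESeq2 1.42.0, limma-voom (limma 3.58.1), 2 other filters, the replicate number as a replicate block, leaving out each library, and limma on log2 TPM with a pseudocount of 1 or 0.1. Groups of related genes were also summed and tested as 1 gene in the same fit. These were the class I heavy chains, the Q region genes, H2-T22 with H2-T23, the class II H2 genes and the H2-DMb pair. Their coding sequences were not all near-identical, with 95.9% identity in the H2-DMb pair and 70.2% between H2-T22 and H2-T23. Ratios of TPM were compared with two-sided exact permutation tests on the log2 scale.

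Named with values in every library are H2-K1, H2-D1, B2m, Nlrc5, Ciita, the class II chains and chaperones, every processing gene and any other member with an unadjusted p under 0.05. Of each list the 3 genes with the smallest p are named, most of them with a fold change alone. Values of H2-Q1, H2-Q4, H2-Q7, H2-Q10, H2-T22, H2-T23 and H2-M2 are outside that rule and were given after being seen. The members and lists were chosen with earlier results of these data known. Positions and transcripts came from GENCODE M21 and promoters from RefSeq (GRCm38.p6), and coding sequences were aligned with MAFFT 7.526. Sequences on mouse chromosome 18 are not shown.

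The tests were tried on simulated data, with 200 genes changed among 13059. The changed genes were drawn only from those above a floor of mean counts, which H2-Q2, H2-Oa, H2-Ob, H2-Eb2 and H2-DMb2 do not reach. The shares recovered do not cover such genes with few counts. For the knockout against the control, edgeR recovered 57% of 2-fold and 98% of 4-fold changes, with 14 false calls among 169, DESeq2 68% and 99% with 28 among 195, and limma-voom 57% and 98% with 15 among 170. Python 3.11.15, matplotlib 3.10.9 and R 4.3.3 served for all steps.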

Additional observations from a re-analysis of the deposited data

How the results depend on the processing

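With 3 livers a group, the 95% intervals of all tested members but Psmb8, Psmb9, Psmb10 and H2-Q2 span 0. Few counts limit H2-Q2, H2-Oa, H2-Ob, H2-Eb2 and H2-DMb2. Over the 35 tested members, 516 of 596 alternative values kept the direction and the side of the threshold, 80 turned the sign, and 15 members never did. None of these members was called under any alternative.

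The number of genes called was 0 in the main analysis, 118 with DESeq2 and 5 with the replicate block, and 0 to 2 when 1 library was left out. Same-numbered libraries correlated at 0.115, -0.00678 and 0.133 in their deviations from the group means, so that the numbers were not taken as pairs. With the replicate block 0 members were called. The class I median was 0.043 with library totals, 0.00354 on log2(TPM + 1), 0.00354 on log2(TPM + 0.1) and 0.00625 with all genes above 0 TPM, and 0.11 to 0.30 when 1 library was left out, lowest without control replicate 2. The processing median was -0.031 with library totals, -0.046 on log2(TPM + 1), -0.046 on log2(TPM + 0.1) and -0.046 with all genes above 0 TPM, and 0.17 to 0.27 when 1 library was left out. The class II median was -0.12 to 0.44 when 1 library was left out, lowest without knockout replicate 1. With library totals and on log2(TPM + 1) the median of all tested genes shifted as well, to -0.21 and -0.20.

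With library totals the sign turned for H2-Aa (-0.050), H2-Ab1 (-0.15), H2-Eb1 (-0.11), Cd74 (-0.012), Tap1 (-0.12), Tap2 (-0.13), Tapbp (-0.031), Psme1 (-0.085), Erap1 (-0.18) and H2-Q6 (-0.17). On log2(TPM + 1) the sign turned for H2-Aa (-0.10), H2-Ab1 (-0.19), H2-Eb1 (-0.15), Cd74 (-0.039), H2-DMb1 (-0.037), Tap1 (-0.17), Tap2 (-0.14), Tapbp (-0.046), Psme1 (-0.11), Erap1 (-0.23), H2-Q6 (-0.19) and H2-M2 (-0.33). On log2(TPM + 0.1) the sign turned for H2-Aa (-0.10), H2-Ab1 (-0.19), H2-Eb1 (-0.15), Cd74 (-0.039), H2-DMb1 (-0.038), Tap1 (-0.18), Tap2 (-0.15), Tapbp (-0.046), Psme1 (-0.11), Erap1 (-0.24), H2-Q6 (-0.19), H2-M2 (-0.52) and H2-Eb2 (-0.00067). Testing log2(TPM + 1) over all genes above 0 TPM left these members at the log2(TPM + 1) values given. With upper-quartile scaling the sign turned for Erap1 (-0.0015), and H2-M2 was at -0.11 with the replicate block and -0.27 with limma-voom. H2-M3, at -0.0026, turned to 0.0083 with RLE, 0.0055 with no filter and 0.0087 with DESeq2. When 1 library was left out, the log2 fold changes that crossed 0 ran from -0.24 to 0.064 for Nlrc5, -0.044 to 0.45 for Ciita, -0.18 to 0.41 for H2-Aa, -0.29 to 0.30 for H2-Ab1, -0.27 to 0.35 for H2-Eb1, -0.12 to 0.48 for Cd74 and -0.073 to 0.57 for H2-DMa. The others that crossed 0 ran from -0.064 to 0.46 for H2-DMb1, -0.26 to 0.086 for H2-DMb2, -0.67 to 0.40 for H2-Ob, -0.034 to 0.20 for Tap1, -0.097 to 0.11 for Erap1, -0.55 to 0.11 for H2-Q1, -0.066 to 0.18 for H2-Q6, -0.56 to 0.81 for H2-M2, -0.099 to 0.056 for H2-M3 and -0.11 to 0.72 for H2-Eb2. Under TMM with all libraries these values lay above 0 except for Nlrc5, H2-DMb2, H2-Ob, H2-Q1 and H2-M3. Beyond the common shift with scaling, the cause was not tested.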
